A study of Homo sapiens with 6 samples.

Results

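Matrix and mesenchymal genes of SH-SY5Y cells were examined on 6 arrays, 3 of the Bf 140 nM group and 3 of the DMSO 0.6% group, both collected after 1 h. They are CCN1, CCN2, THBS1, IGFBP3, VIM, COL3A1, COL1A1, COL1A2, COL4A1 and TWIST1, 10 of the 11963 genes that the platform annotation names on a probe set with a single symbol. All 24 of their probe sets were taken, with no filter on low values, so none was dropped. These genes were chosen for how their values vary between replicate numbers in these same arrays, so the differences between replicate numbers given here are a description and carry no test. The comparison of Bf 140 nM with DMSO 0.6% was not part of that choice and was tested. SH-SY5Y, a cloned line from a human neuroblastoma, was grown in serum-containing medium in both groups. Bf is the free fraction of unconjugated bilirubin, most of which albumin binds, and since the bilirubin was dissolved in DMSO both groups received that solvent. Each treatment had flasks of its own.

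The extracellular matrix is the network of secreted proteins to which cells attach. Fibrillar collagens give it strength, type IV collagen forms the sheet of the basement membrane, and matricellular proteins such as those of the CCN and thrombospondin families bind growth factors and integrins without building fibres. CCN1 and CCN2 are transcribed quickly after serum or stretch, through the YAP and TEAD factors and through SRF. Neuroblastoma lines can hold a noradrenergic and a more mesenchymal state, and VIM and fibrillar collagens are among the genes that are usually higher in the mesenchymal one.

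The arrays were first compared as a whole. Values are variance-stabilized intensities on a log2 scale, where a difference of 1 is 2-fold at high signal, while near background this scale shrinks the fold. Array medians lay between 7.73 and 7.97, and both replicate 3 arrays had the lowest. Correlations over all probe sets were 0.961 to 0.977 between either replicate 3 array and the rest, and 0.995 between the pair of them. Of the 10 noradrenergic markers measured, 9 left the lowest 25% of probe sets on at least 1 array. The exception was TH, the rate-limiting enzyme of catecholamine synthesis, between 6.39 and 6.65. Of 9 fibroblast markers 7 did so as well, and 5 of these 9 also stand in other lists used here. Lower cell numbers of a type and less RNA per cell cannot be told apart in such samples.

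CCN1, IGFBP3 and COL3A1 carried the widest variation between replicate numbers among the 10 genes. In each the treated and the control array of a number lay close together, except on 210764_s_at of CCN1. CCN1, a matricellular ligand of integrins, was measured by 2 probe sets. On 201289_at it was at 10.53, 10.13 and 8.79 log2 in replicates 1, 2 and 3 of Bf 140 nM, and at 10.58, 9.99 and 8.62 in DMSO 0.6%. Both arrays of replicate 3 were thus below the other 4, and the arrays of one number differed by at most 0.18 log2. The mean of replicate 3 minus the mean of replicates 1 and 2, called the replicate 3 difference below, was -1.60 log2 (-1.54 within Bf 140 nM and -1.67 within DMSO 0.6%), or 3.04-fold lower. On 210764_s_at CCN1 was at 9.33, 9.02 and 7.74 in Bf 140 nM and at 10.04, 8.95 and 7.12 in DMSO 0.6%. Here the replicate 3 difference was -1.90 log2, and the arrays of one number lay up to 0.71 log2 apart.

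IGFBP3, which binds insulin-like growth factors outside the cell, had another order of the replicate numbers. It was at 10.87, 11.57 and 9.83 log2 in replicates 1, 2 and 3 of Bf 140 nM on 210095_s_at, and at 10.61, 11.67 and 9.78 in DMSO 0.6%. Replicate 2 was therefore the highest number for IGFBP3, by 0.88 log2 over replicate 1, where CCN1 was lower in replicate 2 than in replicate 1 by 0.50 and 0.70 log2 on its probe sets. The probe set 212143_s_at of IGFBP3 showed 9.70, 10.80 and 8.10 in Bf 140 nM and 9.83, 10.84 and 7.97 in DMSO 0.6%. Its replicate 3 difference of -2.26 log2 was the lowest of the 24 member probe sets, against -1.37 on 210095_s_at.

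COL3A1, the chain of fibrillar collagen III, was highest in replicate 1, as CCN1 was. On 215076_s_at it was at 11.22, 10.50 and 9.71 log2 in replicates 1, 2 and 3 of Bf 140 nM and at 11.13, 10.69 and 9.98 in DMSO 0.6%. On 201852_x_at the values were 10.21, 9.55 and 8.43 in Bf 140 nM and 10.35, 9.76 and 8.51 in DMSO 0.6%. The replicate 3 differences were -1.04 and -1.50 log2, and replicate 2 was below replicate 1 by 0.58 and 0.63 log2. A further probe set, 211161_s_at, gave -0.69 log2. The dim 215077_at, between 6.17 and 6.40 log2 on all arrays and always in the lowest 25% of probe sets, gave -0.09 with overlapping arrays.

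**Figure D1:**
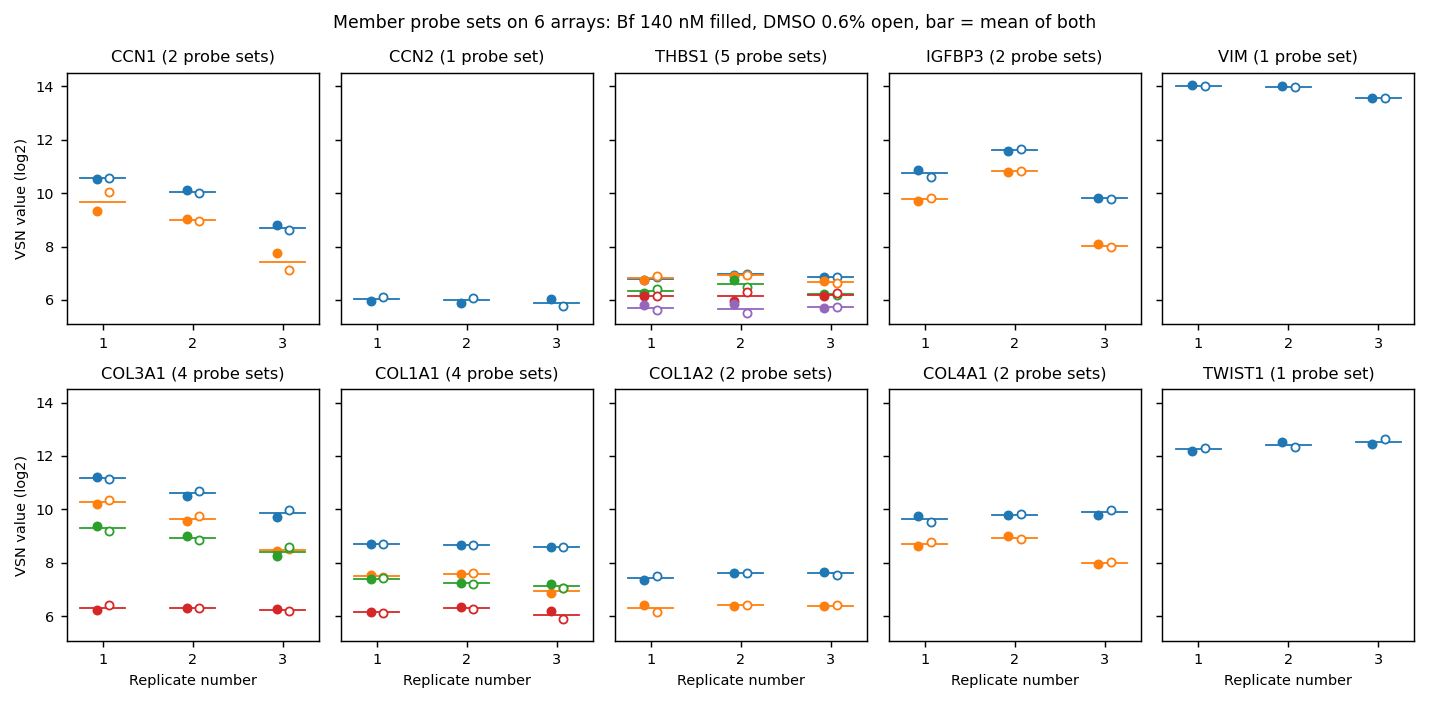
Values of the 24 probe sets of the 10 genes on a log2 scale (vertical axis) by replicate number (horizontal axis), with 1 colour per probe set, Bf 140 nM filled, DMSO 0.6% open and bars for the mean of both arrays of a number. CCN1, IGFBP3 and COL3A1 spread widely over the replicate numbers, with IGFBP3 highest in replicate 2, while CCN2, THBS1 and COL1A2 stay near the same level.

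VIM, the main intermediate filament protein of mesenchymal cells, was among the brightest probe sets of each array. It was at 14.06, 14.00 and 13.55 log2 in replicates 1, 2 and 3 of Bf 140 nM and at 14.00, 13.96 and 13.58 in DMSO 0.6%. The replicate 3 difference of VIM was -0.44 log2 (-0.63 after quantile normalization and -0.24 with equal array medians), with both replicate 3 arrays below the other 4. TWIST1, a basic helix-loop-helix factor of mesenchymal tissues, was at 12.17, 12.51 and 12.46 in Bf 140 nM and at 12.31, 12.32 and 12.62 in DMSO 0.6%. Its arrays overlapped between the numbers, with a replicate 3 difference of 0.21 log2 that was -0.02 after quantile normalization. VIM thus stood lower in replicate 3 under each scaling, and TWIST1 had no fixed sign.

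Collagen I is built from the products of COL1A1 and COL1A2, and neither showed the spread of COL3A1. COL1A2 was at 7.36, 7.60 and 7.65 log2 in replicates 1, 2 and 3 of Bf 140 nM on 202403_s_at and at 7.52, 7.61 and 7.56 in DMSO 0.6%, with a replicate 3 difference of 0.08. On 202404_s_at, which was in the lowest 25% on every array, it was 0.03. The brightest COL1A1 probe set, 217430_x_at, stayed between 8.59 and 8.70 log2 on the 6 arrays. The lowest replicate 3 difference of COL1A1, -0.61 log2, was on 202310_s_at, at 7.56, 7.57 and 6.87 in Bf 140 nM and 7.48, 7.62 and 7.04 in DMSO 0.6%. The remaining COL1A1 probe sets gave -0.19 and -0.18 log2.

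CCN2 and THBS1 were in the dim part of the arrays. CCN2, the matricellular relative of CCN1, was at 5.97, 5.90 and 6.02 log2 in replicates 1, 2 and 3 of Bf 140 nM and at 6.12, 6.09 and 5.77 in DMSO 0.6%, between percentiles 1.58 and 6.01 of each array. Its replicate 3 difference was -0.12 log2, with 0.09 within Bf 140 nM and -0.33 within DMSO 0.6%. THBS1, a secreted glycoprotein that activates latent TGF-beta, was measured by 5 probe sets between 5.51 and 6.98 log2. Of these 3 were in the lowest 25% on every array, and the 5 replicate 3 differences lay between -0.26 and 0.06 log2. The genes were chosen as varying by replicate. Both replicate 3 arrays were below the other 4 on every probe set of CCN1, IGFBP3 and VIM. They were so on some probe sets of COL3A1, COL4A1, COL1A1 and THBS1. Over all probe sets tested this order was found in 34.1% and the opposite order in 18.9%. The replicate 3 differences of VIM, COL1A1 and THBS1 all lay within the 5th to 95th percentile of all probe sets, -0.80 to 0.60 log2. The arrays of CCN2, COL1A2 and TWIST1 overlapped between the numbers on every probe set. In THBS1 both replicate 3 arrays were below the other 4 on 2 of the 5 probe sets, by 0.18 and 0.26 log2.

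Promoter sequence is shown for CCN2 and THBS1, members that stayed dim, and for IGFBP3, the member with the lowest replicate 3 difference. RefSeq sequence of GRCh38.p14 was matched by symbol for these and for VIM and COL4A1, 5 of the 10 genes. Each line holds the 250 bases before the start of the gene, read 5′ to 3′ on the gene's strand. Capitals mark GGAATG, the core letters that TEAD factors bind, and TATAAA, the letters of a TATA box, searched on both strands with no overlap between the motifs. The windows are chr6:131951373-131951622 on the minus strand for CCN2, chr15:39580829-39581078 on the plus strand for THBS1 and chr7:45921273-45921522 on the minus strand for IGFBP3.
CCN2: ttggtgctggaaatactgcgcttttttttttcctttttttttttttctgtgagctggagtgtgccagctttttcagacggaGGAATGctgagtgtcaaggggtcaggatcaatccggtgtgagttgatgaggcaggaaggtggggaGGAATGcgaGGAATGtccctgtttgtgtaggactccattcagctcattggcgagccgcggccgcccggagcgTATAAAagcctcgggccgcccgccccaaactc
THBS1: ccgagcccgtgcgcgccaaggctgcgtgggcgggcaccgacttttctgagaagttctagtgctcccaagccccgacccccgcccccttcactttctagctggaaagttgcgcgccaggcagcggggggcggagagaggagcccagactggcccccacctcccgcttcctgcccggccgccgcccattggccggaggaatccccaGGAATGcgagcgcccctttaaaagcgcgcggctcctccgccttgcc
IGFBP3: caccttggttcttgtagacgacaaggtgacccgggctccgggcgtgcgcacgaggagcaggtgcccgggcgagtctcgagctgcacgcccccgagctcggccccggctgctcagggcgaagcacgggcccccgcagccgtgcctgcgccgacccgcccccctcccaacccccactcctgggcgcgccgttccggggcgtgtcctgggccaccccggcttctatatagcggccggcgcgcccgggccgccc
GGAATG stood 3 times before CCN2, 1 time before THBS1 and 0 times before IGFBP3, VIM and COL4A1. Of 35116 windows of this length in the table, 11.9% held it at least 1 time and 0.0826% at least 3 times. TATAAA stood 1 time before CCN2 and 0 times before the other 4, and 10.7% of all windows held it. These matches are letters in a window, and the arrays do not measure binding.

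Across the 24 probe sets both replicate 3 arrays were below the other 4 in 14 and above them in 0. Over all 22215 probe sets tested these orders were found in 34.1% and 18.9%. The replicate 3 difference was under -1 log2 in 6 member probe sets, those named above for CCN1, IGFBP3 and COL3A1, and in 3% of all probe sets. Its median over the members was -0.19 log2, against -0.07 over all probe sets. Setting all arrays to the same median raised every such difference by 0.20 log2, which put the median of the members at 0.01 and left those of CCN1, IGFBP3 and COL3A1 negative on their brightest probe sets. Since the genes were picked on this contrast, nothing is read from these counts.

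**Figure D2:**
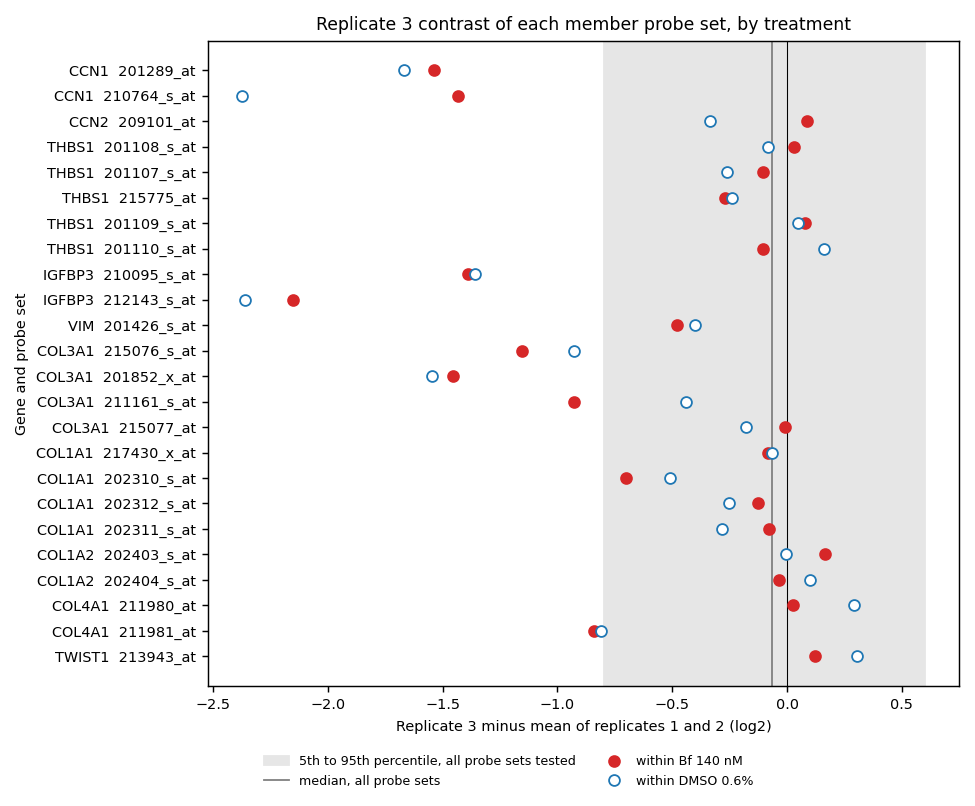
Mean of replicate 3 minus mean of replicates 1 and 2 on the log2 scale (horizontal axis) for each member probe set (vertical axis), within Bf 140 nM (filled) and within DMSO 0.6% (open), with the 5th to 95th percentile of all probe sets shaded and their median as a grey line. The probe sets of CCN1 and IGFBP3 lie left of the shaded range in both treatments, and those of CCN2, THBS1, COL1A2 and TWIST1 lie inside it.

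Several genes were measured by more than 1 probe set, and these did not always give the same picture. Where each probe set lies on its transcript was not analysed here. COL4A1, a chain of basement membrane collagen, had probe sets of opposite sign, both above the lowest 25% of probe sets. The dim 201109_s_at and 201110_s_at of THBS1 correlated at -0.74, though their replicate 3 differences were small and of the same sign, at 0.06 and 0.03 log2. The replicate 3 difference of 201852_x_at of COL3A1 minus that of the dim 215077_at was -1.41 log2. Near background the scale shrinks differences, so pairs with a dim probe set say little about agreement. On 211980_at COL4A1 was at 9.77, 9.78 and 9.80 log2 in replicates 1, 2 and 3 of Bf 140 nM and at 9.54, 9.84 and 9.98 in DMSO 0.6%. On 211981_at it was at 8.63, 8.98 and 7.97 in Bf 140 nM and at 8.79, 8.89 and 8.02 in DMSO 0.6%. The first gave a replicate 3 difference of 0.16 log2 with overlapping arrays, and the second -0.83 with both replicate 3 arrays lowest, and their values correlated at -0.49 over the 6 arrays. The first minus the second was 0.75 to 1.14 log2 on the arrays of replicates 1 and 2, but 1.83 and 1.95 on those of replicate 3.

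IGFBP3 probe sets moved together but by unequal amounts. Their values correlated at 0.98 over the 6 arrays, which share the same cells and normalization. The brighter minus the dimmer IGFBP3 probe set was 0.77 to 1.17 log2 in replicates 1 and 2, and 1.74 and 1.81 in replicate 3. For COL3A1 the brightest minus 201852_x_at was 0.78 to 1.01 log2 in replicates 1 and 2 and 1.28 and 1.47 in replicate 3. In COL1A1 the brightest minus 202310_s_at was 1.03 to 1.21 and then 1.72 and 1.56. In CCN1 the ranges overlapped, at 0.54 to 1.20 in replicates 1 and 2 and at 1.05 and 1.49 in replicate 3. They also overlapped in COL1A2, at 0.95 to 1.35 and then 1.29 and 1.16. The dim THBS1 pair gave 0.18 to 0.51 and then 0.63 and 0.65. The pairs were the brightest probe set of a gene and the one with its lowest replicate 3 difference, a choice made with the values in view. For COL3A1, COL1A1 and THBS1, which have more probe sets, a wider mean gap in replicate 3 followed from this choice. Against the other COL3A1 probe sets, 211161_s_at and 215077_at, the replicate 3 difference of the brightest went the opposite way, by -0.36 and -0.95 log2. For the remaining COL1A1 probe sets the same comparison gave 0.12 and 0.11. Both probe sets of CCN1 and both of IGFBP3 were lower in replicate 3 in either treatment.

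Platform controls, whose probe sets are named for their place on the transcript, varied in the same arrays. The 3′ minus the 5′ probe set of actin was 0.10 to 0.50 log2 in replicates 1 and 2 and 1.49 and 1.90 in the replicate 3 arrays of Bf 140 nM and DMSO 0.6%. For GAPDH it was 0.20 to 0.25 and then 1.03 and 1.15. For the ISGF3A control it was 2.26 to 2.40 and then 3.30 and 3.69. Within GAPDH the replicate 3 difference was 0.20 log2 at the 3′ end and -0.68 at the 5′ end, so 1 transcript gave both signs. Actin was lower in replicate 3 also at its 3′ end, by -1.31 log2, and by -2.73 at its 5′ end. The part of this 3′ bias in the values of the matrix genes was not tested.

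**Figure D3:**
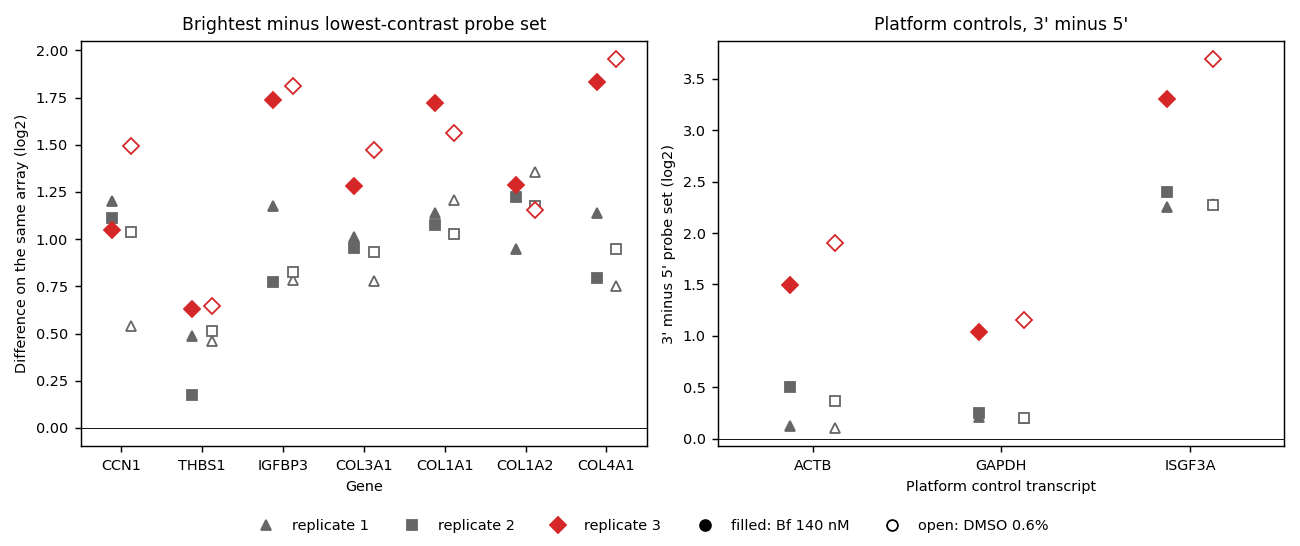
Differences on the same array in log2 (vertical axes) for the brightest minus the lowest-contrast probe set of each gene (left) and for the 3′ minus the 5′ probe set of the platform controls (right), by gene or control on the horizontal axes, with replicate 3 in red, Bf 140 nM filled and DMSO 0.6% open. The second probe set of a gene was chosen for its low replicate 3 difference. COL4A1 and IGFBP3 reach 1.74 to 1.95 in replicate 3 and stay at or below 1.17 in the others. Each control is highest in replicate 3.

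Treatment with Bf 140 nM for 1 h was then set against DMSO 0.6% for the same genes. By limma, with Benjamini-Hochberg adjustment over all 22215 probe sets and a limit of 0.10, 0 of the 24 member probe sets were called higher and 0 lower, and of all probe sets 0% were called. At an unadjusted limma p under 0.05 there were 0 members, against 0.099% of all probe sets, and 0 with the replicate number as a block, against 1.22%. Without the block, differences between replicate numbers enter the error of the test. A count of 0 there does not show that the genes did not respond. The differences of the members lay between -0.16 and 0.16 log2, 9 positive and 15 negative, with a median of -0.01, where the median of all probe sets was 0.01. On 201289_at the mean of CCN1 was 9.82 ± 0.91 log2 under Bf 140 nM and 9.73 ± 1.01 under DMSO 0.6% (SD, n = 3 each), a difference of 0.09 log2 with a 95% confidence interval of -1.44 to 1.62. With the replicate block this interval was -0.10 to 0.28. In pairs 1, 2 and 3 the CCN1 difference was -0.05, 0.14 and 0.18 on 201289_at, and -0.71, 0.07 and 0.62 on 210764_s_at.

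IGFBP3 differed between the treatments by 0.07 log2 (95% confidence interval -1.38 to 1.52, and -0.13 to 0.27 with the block) on 210095_s_at. Pairs 1, 2 and 3 of IGFBP3 gave 0.26, -0.10 and 0.05 there, and -0.13, -0.04 and 0.12 on 212143_s_at. COL3A1 differed by -0.12 log2 on 215076_s_at (-1.20 to 0.96, and -0.32 to 0.08 with the block). On 201852_x_at it differed by -0.14 (-1.61 to 1.32, and -0.32 to 0.04 with the block), and pairs 1, 2 and 3 were -0.14, -0.21 and -0.08. This is 1 of 2 member probe sets with a negative difference in all 3 pairs, where 5.83% of all probe sets had that. The other COL3A1 probe sets differed by 0.01 and -0.03. Without the block VIM differed by 0.03 log2 (-0.42 to 0.47), COL4A1 by -0.00 and -0.04 on its probe sets, TWIST1 by -0.04 (-0.37 to 0.30) and CCN2 by -0.03 (-0.32 to 0.26).

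THBS1 held both the lowest and the highest difference of the members, on dim probe sets. On 201109_s_at it was at 6.13, 5.98 and 6.13 log2 in Bf 140 nM and at 6.16, 6.29 and 6.27 in DMSO 0.6%, a difference of -0.16 with a 95% confidence interval of -0.38 to 0.06. The adjusted p from limma was 1.00. All Bf 140 nM arrays were below all DMSO 0.6% arrays here, for which an exact permutation test (two-sided) gives p = 0.1, its minimum with 3 per group. This order was found in 1 of the 24 probe sets and in 0.59% of all, and the opposite order in 0 of the 24 and in 2.06% of all, together 2.65%. On 201110_s_at the difference was 0.16 log2, of the opposite sign. COL1A1 was positive in all 3 pairs on 202311_s_at, at 0.045, 0.083 and 0.27 log2 around a difference of 0.13 (-0.15 to 0.42), where 11.8% of all probe sets were positive in all pairs. COL1A1 differed by -0.00 on its brightest probe set, and COL1A2 by -0.02 and 0.05 log2.

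The intervals were widest for the genes that varied most between replicate numbers. Without the block the 95% confidence interval of a member reached a median of 0.32 log2 on either side, and up to 2.23 for 212143_s_at of IGFBP3. With the block the median was 0.19 and the widest 0.38. A change of 1 log2 in either direction lay outside the interval for 18 of the 24 probe sets without the block and for all 24 with it. The 6 remaining ones without the block were those of CCN1, IGFBP3 and COL3A1 with a replicate 3 difference under -1 log2.

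**Figure D4:**
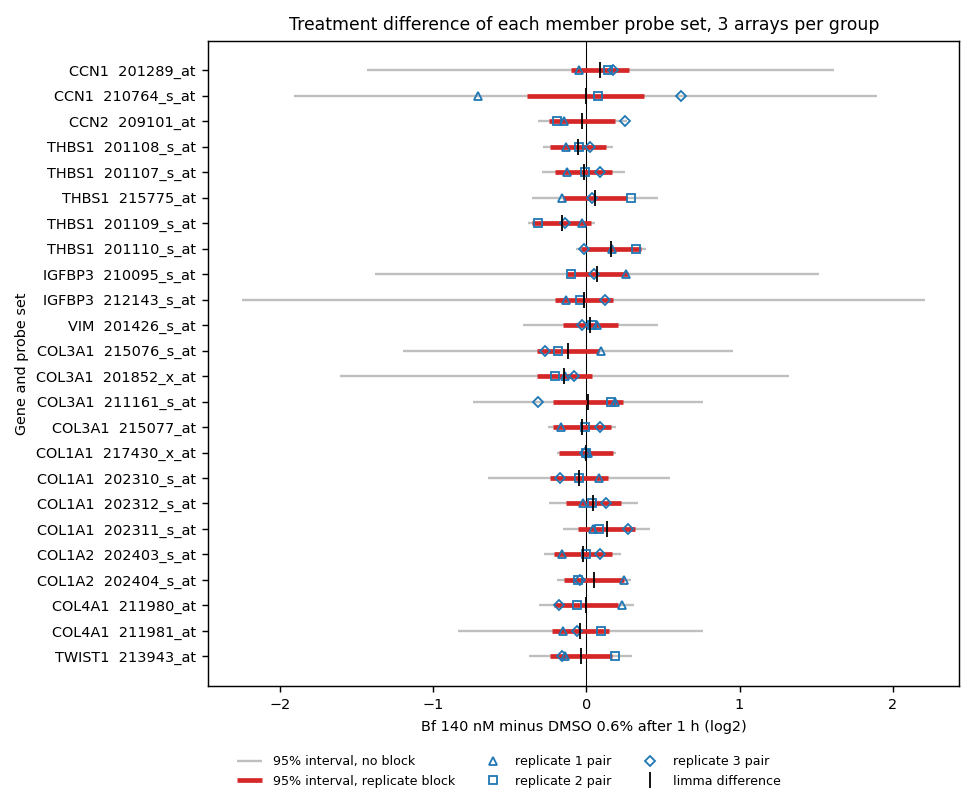
Bf 140 nM minus DMSO 0.6% after 1 h in log2 (horizontal axis) for each member probe set (vertical axis), with the limma difference as a tick, 95% confidence intervals without (grey) and with (red) the replicate block, and the 3 same-numbered pairs as open symbols. The grey intervals of CCN1 and IGFBP3 reach past 1 log2 on both sides, and the red ones stay between -0.39 and 0.38.

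Related genes were taken from lists of families and pathways, and in each of the 14 lists limma called 0 probe sets higher and 0 lower in Bf 140 nM. The medians of their differences lay between -0.02 and 0.07 log2, and 0 probe sets of the 14 lists had an unadjusted p under 0.05. The replicate 3 difference is given here as a description only, to be read against the 34.1% of all probe sets with both replicate 3 arrays lowest and the 18.9% with both highest. Values of single genes are those of the brightest probe set unless several are given. Among 22 probe sets of the CCN, thrombospondin and IGFBP families it had a median of -0.12 log2, with both replicate 3 arrays lowest in 7 (31.8%) and highest in 2 (9.09%). IGFBP2 and IGFBP4, relatives of IGFBP3, stood at -1.26 and -1.03, and CCN5 at -0.31. Among 83 probe sets of collagens and other matrix the median was -0.14, with both replicate 3 arrays lowest in 31 (37.3%) and highest in 8 (9.64%). COL6A2, a chain of the beaded collagen VI, was at -1.04, ELN, which encodes elastin, at -0.75 and COL5A1, of a fibrillar collagen, at -0.62.

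Genes for collagen processing and remodelling gave a median of -0.16 log2 over 40 probe sets, lowest in replicate 3 in 18 (45%) and highest in 1. SERPINH1, the collagen chaperone, was at -1.04 and TIMP1, an inhibitor of metalloproteases, at -0.63. Of 53 probe sets of integrins and other matrix receptors, with a median of -0.11 log2, 19 (35.8%) were lowest and 4 (7.55%) highest in replicate 3. SDC1 was at -0.59 and 0.06 on its probe sets and DDR2 at -0.56. ITGAV, an integrin chain that pairs in receptors for matricellular proteins, was at 0.81 log2, higher in each replicate 3 array than in the other 4. The probe sets of CD47, a receptor of THBS1, disagreed, at 0.93 on the brightest and at 0.09, -0.02 and -0.43 on the others. The 21 probe sets of the YAP and TEAD pathway, which held 3 lowest and 3 highest, had a median of -0.02, with YAP1 at -0.26 and WWTR1 at -0.26, 0.10 and -0.02 on its probe sets. In 36 probe sets of SRF targets and the actin cytoskeleton the median was -0.36. Of these 19 (52.8%) were lowest and 2 (5.56%) highest in replicate 3. ZYX, a focal adhesion protein, was at -1.45 and TLN1, which links integrins to actin, at -1.20. The probe sets of ACTN1 disagreed, at 0.90, -0.30 and -0.18.

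For the TGF-beta pathway the median was -0.14 log2 over 36 probe sets, 21 (58.3%) of them lowest and 4 (11.1%) highest in replicate 3. The target ID1 was at -1.45 and TGFB1, a ligand, at -0.89 and -0.09 on its probe sets. ID2, in the same list, was at 0.38 and 0.73 on its probe sets. Mesenchymal transcription factors and intermediate filaments were split, with 14 of 46 lowest and 14 highest (30.4% each). SNAI1 and SNAI2, repressors of epithelial genes, were at -0.61 and -0.58, and the probe sets of the cadherin CDH11 at 0.92 and -0.23. The factor TCF4 was at 0.74 on its brightest probe set and between -0.14 and 0.58 on the others. Noradrenergic markers had a median of 0.33 over 15 probe sets, with ISL1 at 0.69 and GATA3 at 0.64 but HAND2 and PHOX2A at -0.61.

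Markers of other cell types are given beside these values for the possible makeup of the cultures. The mean level of the 9 fibroblast markers was between 8.94 and 9.02 log2 on the arrays of replicates 1 and 2 and at 8.84 on both of replicate 3. The array medians were lowest in replicate 3 too, and setting them equal raised every replicate 3 difference by 0.20 log2. Of 21 fibroblast probe sets 9 (42.9%) were lowest and 3 (14.3%) highest in replicate 3. Within that list PDGFRB, a growth factor receptor, was at -0.58 while the probe sets of THY1, a surface glycoprotein, disagreed at 0.55, -0.37 and -0.51. Endothelial, blood, epithelial and glial lists had medians of -0.09, -0.02, -0.17 and -0.00 log2, and 3 of 7, 2 of 5, 3 of 6 and 3 of 6 of their measured genes were in the lowest 25% on every array. CDH5, PTPRC, EPCAM and CDH19 were among these, while EGFL7, HBB, KRT18 and SOX10 were not. In the same order of lists 30%, 11.1%, 71.4% and 27.3% of the probe sets were lowest in replicate 3. The shares highest in replicate 3 were 0%, 22.2%, 0% and 0%. The mean levels of these 4 lists lay between 6.64 and 6.94 on all 6 arrays. The part of a change in culture makeup in the values of CCN1, IGFBP3 and COL3A1 was not tested.

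**Figure D5:**
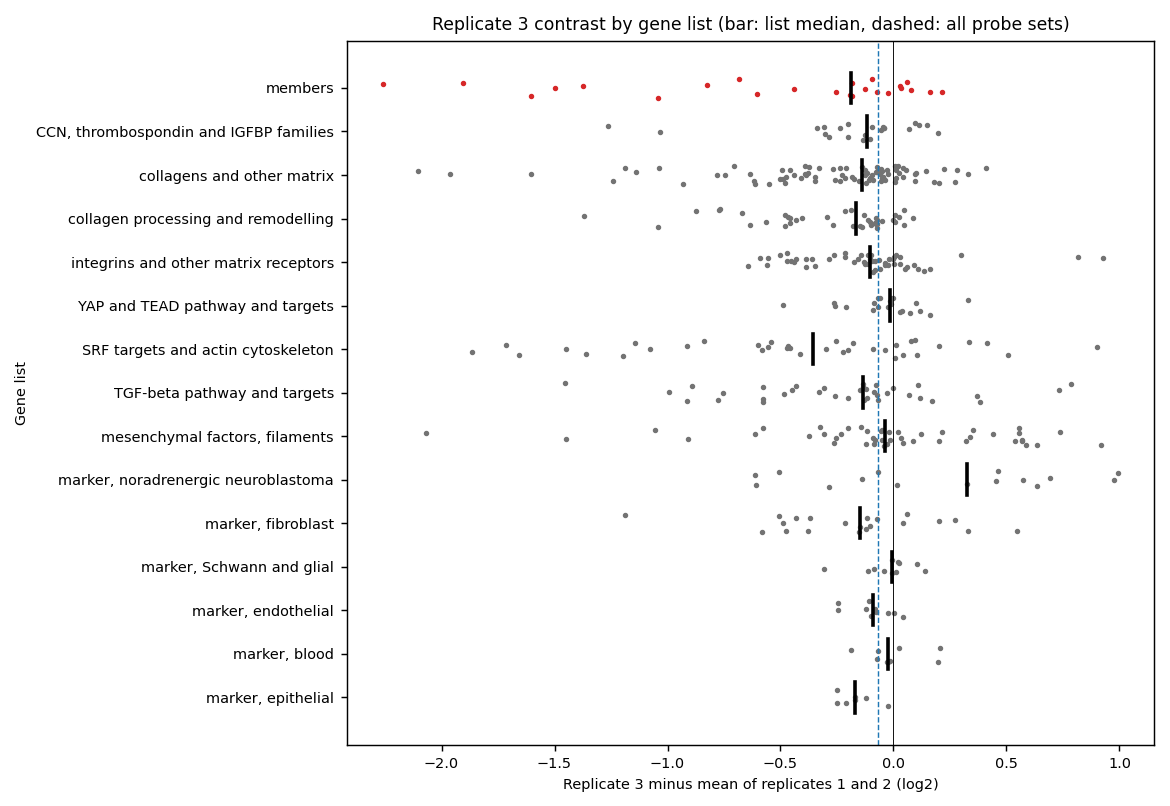
Replicate 3 difference in log2 (horizontal axis) of every probe set in the member list (red) and in the 14 related lists (grey), by list on the vertical axis, with list medians as bars and the median of all probe sets dashed. Medians run from -0.36 for SRF targets and the actin cytoskeleton to 0.33 for noradrenergic markers, around -0.19 for the members.

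Genes most like the mean pattern of the members were sought over the 6 arrays. The mean of the centred brightest probe sets of the 10 members was 0.13, 0.15 and -0.29 log2 in replicates 1, 2 and 3 of Bf 140 nM and 0.12, 0.17 and -0.28 in DMSO 0.6%. Single members depart from this mean. Replicate 2 minus replicate 1 was 0.88 log2 for IGFBP3 but -0.50 for CCN1 and -0.58 for COL3A1. The replicate 3 differences of TWIST1, COL4A1 and COL1A2 on these probe sets were positive. Of 11953 other genes SQLE, an enzyme of sterol synthesis, had the highest Pearson correlation with it at 0.9998, followed by MAP2K4, SLC38A2, RASA3, ACLY, PPM1E, APPL2, MAP1LC3B, SREK1 and GPHN, all at 0.996 or more. At the other end were JADE1, EFNA5, TAOK1, MRC2 and NAA35, all at -0.998 or below. All these correlations are over the same 6 arrays, in which the replicate 3 pair stands apart, and they say nothing of size. ACLY, at 0.998, had a replicate 3 difference of -0.14 log2, and IGFBP3 one of -1.37.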

How the data were processed

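RNA of SH-SY5Y cells treated for 1 h with Bf 140 nM or DMSO 0.6% was hybridised to Affymetrix U133A 2.0 arrays, 3 per group. The authors took cell intensities from GCOS, applied VSN in R 2.5.0 and deposited log2 values for every probe set. VSN output was read as base 2, and how probes were summarised into probe sets is not stated. All probe sets are in the table, including those that the study later dropped by Present call. Gene names came from the platform annotation, and 0 symbols needed an update. The 62 control probe sets were left out of the 22215 tested. No depth applies to arrays, and their number limits the precision.

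Bf 140 nM and DMSO 0.6% were compared with limma 3.58.1 in R 4.3.3 (lmFit, eBayes), adjusted over all 22215 probe sets, at an adjusted p under 0.10, the level of the study, which used SAM. The test was checked on simulated data with noise drawn separately for each array. That check does not cover arrays that pair by number. The replicate number in the titles served as a block in an alternative fit. After subtraction of group means, arrays of number 1, 2 and 3 correlated at 0.72, 0.78 and 0.88 between the treatments. The same was not computed between unlike numbers, so these values alone do not pair numbers 1 and 2. Without subtraction, arrays of number 1, 2 and 3 correlated at 0.9964, 0.9979 and 0.9954, and arrays of unlike numbers at 0.9948 at most. By these values the numbers pair the arrays, though no source says what a number marks. The methods of the study call its replicates independent and biological. The titles give only the replicate numbers. The sample descriptions hold a further number, the same for the treated and the control array of each replicate number.

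The replicate 3 difference is the mean of the 2 replicate 3 arrays minus that of the other 4. The members and lists were chosen with earlier results of these data known. Named genes were all members and up to 4 genes per list with the largest absolute replicate 3 difference (brightest probe set). The rule also named the 10 and 5 genes of highest and lowest correlation with the mean of the members. COL4A1 and IGFBP3 probe set pairs, ACTN1, ID2 and cell type markers outside that rule were named with their values in view. Promoter letters were searched in Python 3.11.15 in RefSeq windows. Alternatives were quantile normalization, equal array medians, a filter at the median level, eBayes with trend and robust settings, leaving out arrays, the replicate block, thresholds of 0.05 and 0.2, and values read as natural logs. No alternative was added later.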

Additional observations from a re-analysis of the deposited data

How the results depend on the processing

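The count of member probe sets passing the test between Bf 140 nM and DMSO 0.6% was 0 in every alternative run, as were those of the related lists and of all probe sets. With the replicate block they were 0 as well. Under the filter at the median level, members below it were not tested. The median replicate 3 difference of the members, -0.19 log2, became -0.13 with quantile normalization, 0.011 with equal array medians, -0.27 when the values were read as natural logs and -0.30 with the mean of all probe sets of each gene, and lay between -0.26 and -0.13 without single arrays. It thus changed sign with the equal medians, which shift all probe sets by 0.20. The sign of small treatment differences on brightest probe sets was not stable. That of COL4A1 became 0.0018 with quantile normalization, and without both replicate 3 arrays COL4A1, COL1A1 and TWIST1 became 0.086, 0.0051 and 0.024. Without single arrays the differences ranged from -0.47 to 0.60 for CCN1, -0.14 to 0.036 for CCN2, -0.10 to 0.0013 for THBS1, -0.38 to 0.56 for IGFBP3, -0.11 to 0.19 for VIM, -0.49 to 0.26 for COL3A1, -0.027 to 0.027 for COL1A1, -0.079 to 0.063 for COL1A2, -0.13 to 0.10 for COL4A1 and -0.10 to 0.065 for TWIST1. Leaving out 1 array of a pair leaves the number unbalanced between the groups. The number of arrays limits the precision of these values.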
